A study of Mus musculus with 9 samples.

Results

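The results concern 8 genes that mark mouse embryonic stem (ES) cells: Dppa2, Dppa3, Dppa4 and Dppa5a, which share the name developmental pluripotency associated, and Utf1, Fbxo15, Tcl1 and Nr0b1. They were chosen by gene name among 35019 names on the array, with earlier values of these arrays known, so their levels and differences are a description. The array held 11 probes for the 8 genes, and all 8 genes passed the filter that left 19914 genes for the whole-table fit. Gene expression was measured with 9 single-colour arrays in cultured ES cells, 3 in each of 3 groups. The null group was a subclone of Xpc-null (KO) ES cells, which is 1 clone. The induced group was an Xpc floxed line 4 days after Xpc deletion, with +Tx in its titles. The floxed group was the Xpc floxed (f/f) line without deletion, with -Tx in its titles. Xpc encodes a DNA damage sensor of nucleotide excision repair that is also known as a partner of Oct3/4 and Sox2. The labels give no induced culture that kept Xpc, and induction or Cre and Xpc deletion cannot be told apart. Whether the arrays of a group came from separate cultures is not stated, so p-values measure the spread between these arrays, which may be technical.

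Dppa3, also called Stella, is a maternal factor that guards the early embryo's genome against changes of DNA methylation, marks the germ line, and is on in naive ES cells. Dppa2 and Dppa4 are SAP-domain proteins that work as partners on chromatin. Dppa5a is a KH-domain RNA-binding protein, and it does not resemble Dppa3 or the SAP-domain pair in its domains. Utf1 and Fbxo15 are classic targets of Oct3/4 and Sox2, the first a chromatin-associated factor and the second an F-box protein of SCF ubiquitin ligases. Tcl1 is a coactivator of Akt kinases, and Nr0b1, also called Dax1, is an orphan nuclear receptor that binds Oct3/4 and Nr5a2.

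The probe sequences are shown because each difference below rests on what a single 60-base probe can see. Capitals mark AATAAA, the signal that precedes the end of many transcripts, searched on the strand given in the scanner files. It stood in 4 of the probes, those for Dppa3, Dppa5a, Tcl1 and Utf1, and in 10.06% of the 60-base probes on the array.
Dppa3 probe, 30 of its bases: ccagggctgaggAATAAAgtaaatagaatt
Dppa5a probe, 30 of its bases: gttaccactctaAATAAAaAATAAAattga
Tcl1 probe, 30 of its bases: gatacggctggatttAATAAAgctttgtag
Utf1 probe, 30 of its bases: ggttcttaccaaAATAAAgattgtgttttc
Nr0b1 probe, 30 of its bases without the signal: gagtgtggtactaggctaacaagctaattt
Dppa4 probe used for the gene, 30 of its bases without the signal: ataagaacaagatcttgactaagagcctcg
In mm9 coordinates the Dppa3 probe lies at chr6:122580207-122580266 on the plus strand, the Dppa5a probe at chr9:78214866-78214925 on the minus strand and the Utf1 probe at chr7:147130950-147131009 on the plus strand. The Tcl1 probe lies at chr12:106454973-106455032 on the minus strand and the Nr0b1 probe at chrX:83441169-83441228 on the plus strand. The Dppa4 probe used for the gene covers chr16:48293216-48293867, a span of 652 bases for 60 bases of probe, so it crosses at least 1 splice junction. Dppa2 is its neighbour on chromosome 16, with 23174 bases between the nearest probes of the pair. Exons and introns of mm9 were not used here.

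The 250 bases before the transcription start are shown for Utf1, Tcl1 and Nr0b1, the 3 of 8 members in the RefSeq promoter table (GRCm38.p6), because Tcl1 and Nr0b1 were both low on the null arrays and on floxed array 3, while Utf1 was high on the null arrays. Capitals mark the motifs found.
Utf1, chr7:139943606-139943855, plus strand: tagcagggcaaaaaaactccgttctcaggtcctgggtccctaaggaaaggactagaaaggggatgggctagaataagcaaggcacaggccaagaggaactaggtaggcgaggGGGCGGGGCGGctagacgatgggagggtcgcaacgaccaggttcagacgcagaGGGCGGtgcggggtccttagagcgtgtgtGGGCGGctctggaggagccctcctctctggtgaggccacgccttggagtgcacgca
Tcl1, chr12:105222738-105222987, minus strand: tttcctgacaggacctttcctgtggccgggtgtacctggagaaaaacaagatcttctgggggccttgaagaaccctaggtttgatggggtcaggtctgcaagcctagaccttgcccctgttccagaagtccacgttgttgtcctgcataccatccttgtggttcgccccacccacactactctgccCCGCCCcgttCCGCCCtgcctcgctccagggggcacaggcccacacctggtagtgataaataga
Nr0b1, chrX:86191525-86191774, plus strand: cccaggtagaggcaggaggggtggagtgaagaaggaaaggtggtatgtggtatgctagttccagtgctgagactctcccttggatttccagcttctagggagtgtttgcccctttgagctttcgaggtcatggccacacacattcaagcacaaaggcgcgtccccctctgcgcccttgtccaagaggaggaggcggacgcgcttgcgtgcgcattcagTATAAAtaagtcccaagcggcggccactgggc
On both strands, the GC box GGGCGG was found 4 times before Utf1, of which the first 2 share bases, 2 times before Tcl1 and 0 times before Nr0b1, and 32.74% of 32851 windows of this length held it. TATAAA was found once before Nr0b1, and 12.37% of windows held it. The octamer ATGCAAAT (in 1.6% of windows), the Sox motif CATTGTT (3.29%) and the nuclear receptor motif AAGGTCA (4.08%) were in none of the 3 windows. A match is a run of letters and not a shown binding site.

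Values are log2 processed signal relative to the 75th percentile of the array, so a difference of 1 is a doubling, and each value is set only against the same probe on other arrays. Xpc itself stood at 31.1% of the floxed level in null cells and at 38.4% in induced cells. It passed the whole-table test in null against floxed cells (limma adjusted p = 0.00584) and did not in induced against floxed cells (limma adjusted p = 0.224). Between 47.4% and 57.9% of spots per array lay well above background and 0 were saturated. Slide 1 held floxed arrays 1 and 2, slide 2 floxed array 3 and null array 3, and slide 3 the induced arrays and null arrays 1 and 2. Floxed array 3 stood apart from its group: the SD over genes was 0.492 for array 3 minus the average of arrays 1 and 2, and 0.284 for array 1 minus array 2. Slide and this array cannot be told apart.

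Dppa3 was low in the null subclone, and in induced cells it lay nearer the floxed level than the null level. Its log2 signal was 1.13, 1.02 and 1.34 on null arrays 1 to 3. It was 2.64, 2.10 and 2.16 on induced arrays 1 to 3. It was 2.63, 2.70 and 2.47 on floxed arrays 1 to 3. All null arrays lay below all induced and all floxed arrays. Induced array 1 lay among the floxed arrays, and induced arrays 2 and 3 lay below all of them. The means were 1.16 ± 0.16 in null, 2.30 ± 0.30 in induced and 2.60 ± 0.11 in floxed cells (SD, n = 3 each). Null cells held 37.0% of the floxed level, a log2 difference of -1.44 (SE 0.16), and 45.6% of the induced level, a difference of -1.13 (SE 0.16). The induced minus floxed difference was -0.30 (SE 0.16). In bulk RNA, fewer cells with the transcript and less of it per cell cannot be told apart.

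The low Dppa3 signal was also present within slides. On slide 2, null array 3 lay at -1.14 relative to floxed array 3, and on slide 3 null arrays 1 and 2 lay at -1.22 relative to the induced arrays. Floxed array 3, at -0.19 from the mean of floxed arrays 1 and 2, stood near its group for this gene. Over the alternatives computed, the null minus floxed difference of Dppa3 ran between -1.52 and -1.14 and the null minus induced difference between -1.23 and -0.96. The induced minus floxed difference ran between -0.47 and 0.08, positive with slide as a fixed block.

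**Figure D1:**
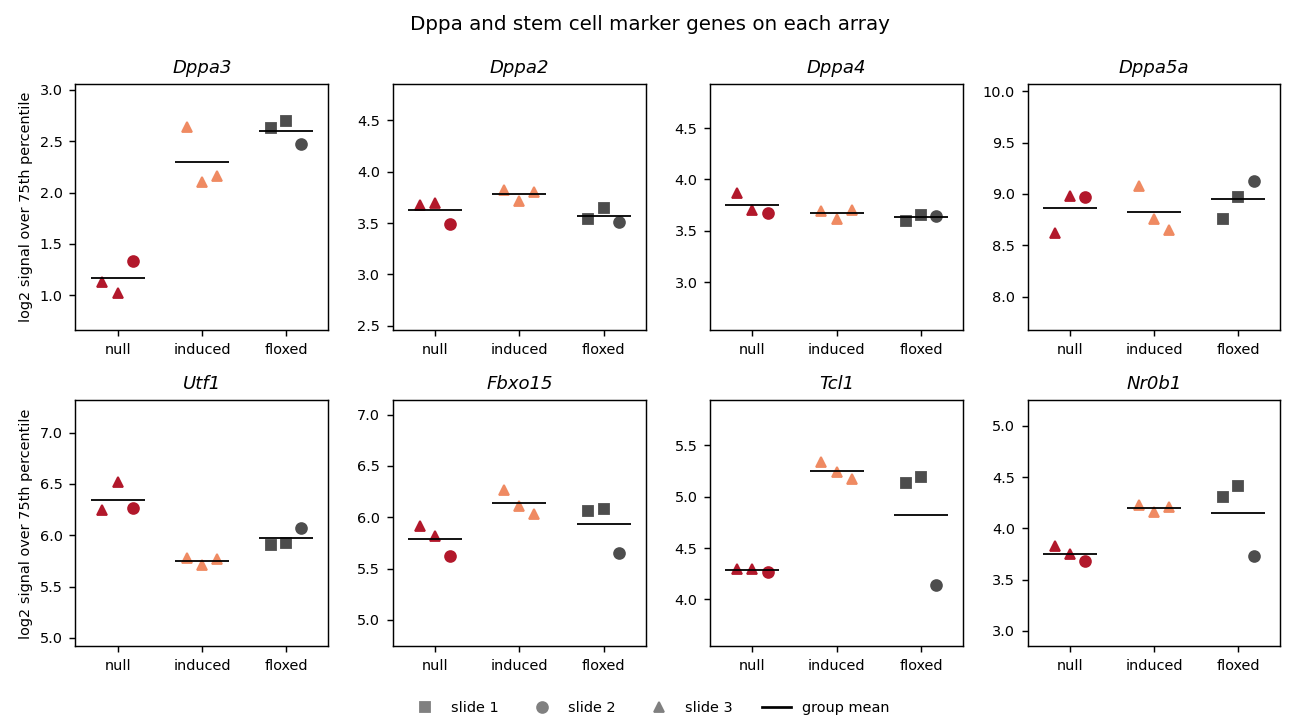
Log2 signal over the array's 75th percentile for each of the 8 genes, one point per array, with null left, induced in the middle and floxed right, marker shape for the slide and a line at the group mean (n = 3). Every panel spans the same log2 range, so distances can be compared but heights cannot. Dppa3 lies at 1.02 to 1.34 on null arrays and at 2.47 to 2.70 on floxed arrays, and floxed array 3 lies low for Fbxo15, Tcl1 and Nr0b1.

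The SAP-domain pair did not share the Dppa3 pattern. Dppa2 had a log2 signal of 3.68, 3.70 and 3.49 on null arrays, 3.83, 3.72 and 3.80 on induced arrays and 3.54, 3.65 and 3.51 on floxed arrays. Induced arrays all lay above null and floxed arrays, by small steps, while null and floxed arrays overlapped. The differences of Dppa2 were 0.06 for null minus floxed, -0.16 for null minus induced and 0.21 for induced minus floxed (SE 0.10 each). The second Dppa2 probe, which spans 1209 bases and so crosses a junction, gave 0.04, -0.02 and 0.06 in the same order. At that probe all groups overlapped. The pair of probes disagreed on the slide 2 arrays: null array 3 and floxed array 3 were the lowest of their groups at the first probe (3.49 and 3.51) and the highest at the second (2.22 and 2.19).

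Dppa4 had a log2 signal of 3.87, 3.70 and 3.67 on null arrays, 3.69, 3.62 and 3.70 on induced arrays and 3.60, 3.65 and 3.64 on floxed arrays. Null arrays lay just above floxed arrays, and induced arrays overlapped with both. The differences of Dppa4 were 0.12 for null minus floxed, 0.08 for null minus induced and 0.04 for induced minus floxed (SE 0.09 each). Its other 2 probes gave 0.05 and 0.09 for null minus floxed, and null and floxed arrays overlapped at each of them.

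Dppa5a had a log2 signal of 8.62, 8.98 and 8.97 on null arrays, 9.08, 8.76 and 8.65 on induced arrays and 8.76, 8.97 and 9.13 on floxed arrays. The 3 groups overlapped throughout. The differences of Dppa5a were -0.10 for null minus floxed, 0.03 for null minus induced and -0.13 for induced minus floxed (SE 0.16 each). The file also lists another transcript for the Dppa5a probe, here called Dppa5b, so the probe's signal may not belong to Dppa5a alone. A separate probe of that transcript lies 94770 bases away and shares at most 7 bases in a row with the Dppa5a probe. Its log2 signal was 6.82, 7.07 and 7.05 on null arrays, 7.55, 7.26 and 7.32 on induced arrays and 7.37, 7.41 and 7.35 on floxed arrays. All null arrays lay below the others at that probe, by -0.40 relative to floxed and -0.40 relative to induced cells. Dppa1, which is no member, had 2 probes that were well above background on 0 and 1 of the 9 arrays.

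**Figure D2:**
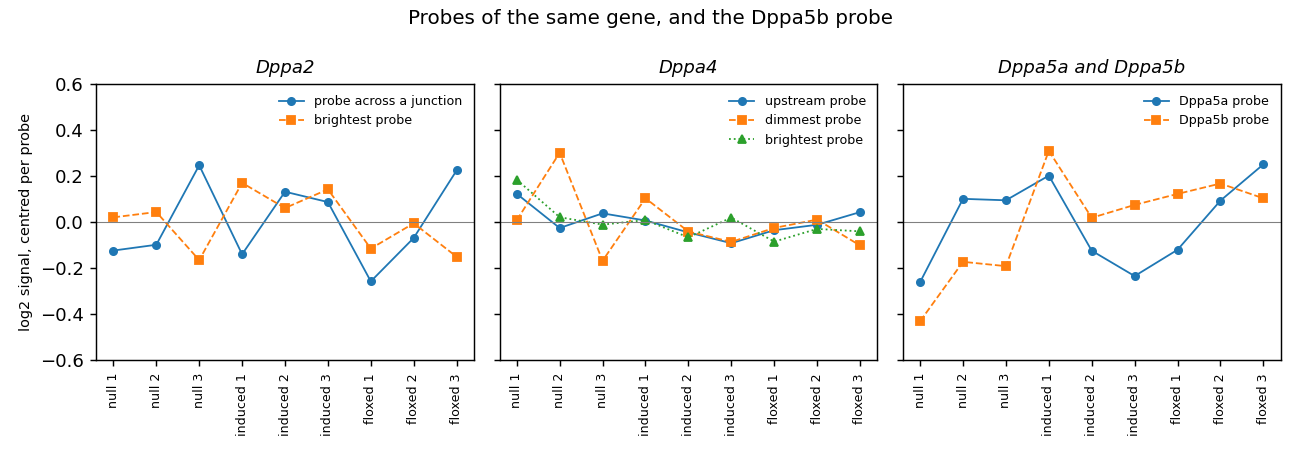
Log2 signal of each probe centred on its mean over the 9 arrays, with arrays ordered null, induced, floxed, for Dppa2, Dppa4, and Dppa5a with Dppa5b. The dimmest Dppa4 probe lies above the other Dppa4 probes on null array 2. The Dppa2 probes part on null array 3 and floxed array 3, and the Dppa5b probe is lowest on the null arrays.

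Utf1 had its highest values on the null arrays. Its log2 signal was 6.24, 6.52 and 6.27 on null arrays, 5.77, 5.71 and 5.77 on induced arrays and 5.91, 5.92 and 6.08 on floxed arrays. The groups did not overlap, with null highest and induced lowest. The differences of Utf1 were 0.38 for null minus floxed, 0.59 for null minus induced and -0.22 for induced minus floxed (SE 0.10 each). Within slide 2 null minus floxed was 0.19, and within slide 3 null minus induced was 0.63.

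Fbxo15 had a log2 signal of 5.92, 5.82 and 5.62 on null arrays, 6.26, 6.11 and 6.04 on induced arrays and 6.06, 6.08 and 5.66 on floxed arrays. Null arrays lay below the induced arrays and overlapped with the floxed arrays, among which array 3 was low. The differences of Fbxo15 were -0.15 for null minus floxed, -0.35 for null minus induced and 0.20 for induced minus floxed (SE 0.14 each). Within slide 2 null minus floxed was -0.03, and within slide 3 null minus induced was -0.27.

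Tcl1 showed the widest split within a group. Its log2 signal was 4.29, 4.30 and 4.26 on null arrays, 5.34, 5.24 and 5.17 on induced arrays and 5.13, 5.19 and 4.14 on floxed arrays. Floxed array 3 lay with the null arrays, and floxed arrays 1 and 2 with the induced ones. The differences of Tcl1 were -0.54 for null minus floxed, -0.96 for null minus induced and 0.43 for induced minus floxed (SE 0.24 each). Without floxed array 3, null minus floxed was -0.88, whereas within slide 2 it was 0.12. Within slide 3 null minus induced was -0.95.

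Nr0b1 was printed on the array 10 times, of which 9 or 10 spots per array were used, with an SD over spots between 0.04 and 0.08. Its log2 signal was 3.83, 3.75 and 3.68 on null arrays, 4.23, 4.16 and 4.21 on induced arrays and 4.31, 4.42 and 3.73 on floxed arrays. Floxed array 3 again lay with the null arrays, at -0.63 from the mean of floxed arrays 1 and 2. The differences of Nr0b1 were -0.40 for null minus floxed, -0.45 for null minus induced and 0.05 for induced minus floxed (SE 0.16 each). Without floxed array 3 null minus floxed was -0.61, within slide 2 it was -0.05, and within slide 3 null minus induced was -0.41.

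**Figure D3:**
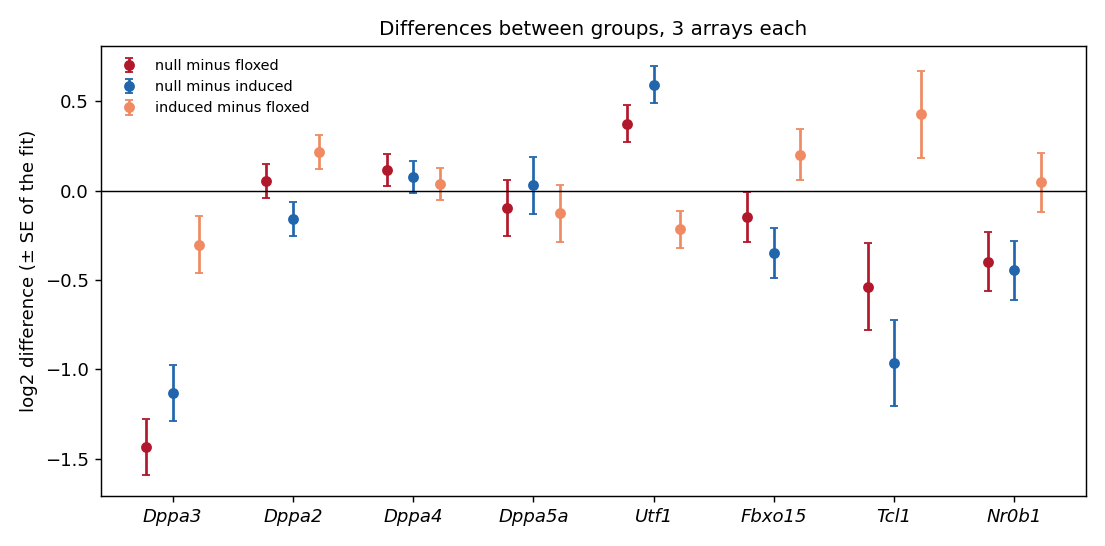
Log2 difference between group means for each gene, null minus floxed, null minus induced and induced minus floxed, with the standard error of the fit (3 arrays per group). Dppa3 stands at -1.44 and -1.13 in the comparisons of the null subclone, and Dppa2, Dppa4 and Dppa5a lie between -0.16 and 0.21 in every comparison.

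**Figure D4:**
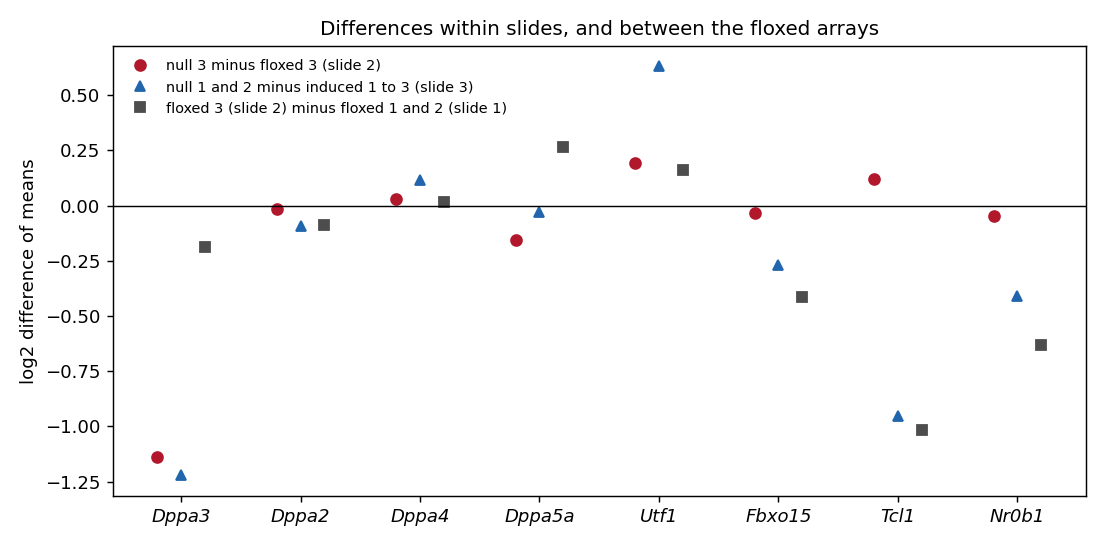
Log2 differences within slides for each gene, null array 3 minus floxed array 3 on slide 2 and null arrays 1 and 2 minus the induced arrays on slide 3, beside floxed array 3 minus the mean of floxed arrays 1 and 2. Dppa3 stands at -1.14 and -1.22 within slides, whereas for Tcl1 the values are 0.12 and -0.95 with floxed array 3 at -1.02.

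In the whole-table fit with limma (Benjamini-Hochberg adjusted p under 0.05), 1 member passed in null against floxed cells, Dppa3, where 1.85% of all genes did. In null against induced cells 2 members passed, Dppa3 and Utf1, against 2.2% of all genes. Over the alternatives with a test, Dppa3 passed in this comparison in 17 and Utf1 in 11. In induced against floxed cells 0 members passed, against 0.00502% of all genes, that is 1 gene, and 1178 genes had an unadjusted p under 0.05. By direction, 1 member was lower in null against floxed cells, where 1.11% of all genes were lower, and in null against induced cells 1 was higher and 1 lower, where 0.658% and 1.54% of all genes were. At an unadjusted p under 0.05 the share of all genes was 22.8%, 23.8% and 5.92% in the order null against floxed, null against induced and induced against floxed. Without floxed array 3 the members that passed were 4 in null against floxed cells (24.9% of all genes), 4 in null against induced cells (18.1%) and 0 in induced against floxed cells (0.782%). With slide as a fixed block they were 0 (0.251%), 4 (16.3%) and 1 (0.874%) in the same order. Since the members were chosen with these values known, nothing is read from these counts. Groups did not overlap for 2 members higher (Dppa4 and Utf1, against 12% of all genes) and 1 lower (Dppa3, against 11.4%) in null against floxed cells. They did not overlap for 1 member higher (Utf1, against 19%) and 5 lower (Dppa2, Dppa3, Fbxo15, Tcl1 and Nr0b1, against 18.3%) in null against induced cells. For induced against floxed cells this held for 1 higher (Dppa2, against 6.63%) and 1 lower (Utf1, against 6.26%). For Dppa2 and Dppa4 this held at the brightest probe alone, and at their other probes these groups overlapped. The median member difference was -0.12 for null minus floxed, -0.25 for null minus induced and 0.04 for induced minus floxed, beside medians of 0.01, 0.02 and -0.00068 over all genes.

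The members were also set against each other by array profile. Likeness was the root mean square difference over the 9 arrays between log2 values centred on each gene, so a smaller value is a closer profile. It also grows with the spread of the genes, so nearly flat profiles are close to each other by construction. Dppa2 and Dppa4 differed by 0.116, near the SD over arrays of Dppa2 itself (0.121, and 0.0782 for Dppa4). Dppa2 differed from Fbxo15 by 0.143 and from Nr0b1 by 0.241. Fbxo15 (SD 0.216) and Nr0b1 (SD 0.284) differed by 0.135, and Tcl1 (SD 0.513) and Nr0b1 by 0.248. Dppa3, with an SD of 0.679, was at 0.471 or more from every other member, farthest from Utf1 at 0.861.

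Among all genes tested, those with the profile most like Dppa3 were Cryab (0.136), Lrrc75a (0.149), Col3a1 (0.156), Krt8 (0.166) and Scarf2 (0.166). Cryab is a small heat shock protein, Col3a1 a fibrillar collagen of fibroblasts and Krt8 a keratin of simple epithelium. Their null minus floxed differences were -1.67 for Cryab, -1.27 for Lrrc75a, -1.64 for Krt8 and -1.63 for Scarf2. Col3a1 exceeded background on no null array and was at least 2.27-fold lower there than in floxed cells. The genes nearest Utf1 were Eras (0.055), Mob3a (0.075) and Uspl1 (0.075), and Eras encodes a Ras-like protein of ES cells. Nearest to Tcl1 were Grasp (0.058), Acss1 (0.065) and Lrrc34 (0.087), and nearest to Nr0b1 were Vwa8, Mccc1 and Cds2. Nearest to Fbxo15 were Elp4, Atxn10 and Phf14. Nearest to Dppa2 were Ywhag, Arhgef39 and Gtf3c3, to Dppa4 Pygo2, Zfp326 and Esf1, and to Dppa5a Rpl18-ps1, Ftl1 and Rpl6. These profiles share 9 arrays and their slides, so no test is attached to them.

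**Figure D5:**
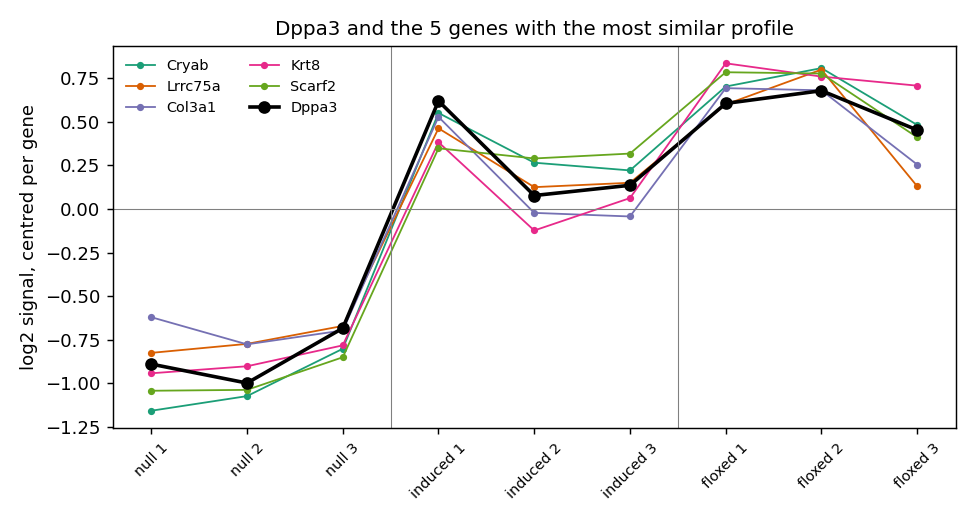
Log2 signal of Dppa3 and of the 5 genes with the most similar profile, centred on each gene's mean over the 9 arrays and ordered null, induced, floxed. All 6 lines lie below 0 on the null arrays, and floxed array 3 is the lowest floxed array for all 6.

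Among markers of other cell types, trophectoderm and fibroblast lists had lower sums on null arrays and the blood list higher ones. The summed linear signal of 8 trophectoderm markers was 37.2 to 40.4 on null, 68.8 to 94.5 on induced and 79.4 to 117 on floxed arrays. The sum of 7 fibroblast markers was 8.77 to 10.6 on null, 20.1 to 27.7 on induced and 29.98 to 36.7 on floxed arrays. Both sums rest mostly on their brightest genes. Mean floxed log2 signal was 5.85 for Krt18, 4.45 for Krt8 and 4.31 for Tfap2c, and -0.61 or lower for the other trophectoderm markers. It was 4.69 for Tagln and 2.25 for Acta2, and 0.29 or lower for the other fibroblast markers. Cdx2, the trophectoderm factor, exceeded background on no null array and was at least 3.84-fold lower there than in floxed cells. Its limma adjusted p of 0.00452 belongs to the fitted difference of -3.51 and not to this bound. That difference rests on null values not above background, so nothing is read from this p. Cdx2, Hand1, Gata3, Col3a1 and Twist2 entered the test through the induced and floxed arrays alone. Of markers above background on all 9 arrays, 3 of 5 for trophectoderm and 4 of 5 for fibroblasts were lower in null than in floxed cells, each past the test. Thy1, a surface protein on the fibroblast list, went the other way at 1.37 (limma adjusted p = 0.103). On the trophectoderm list Eomes went the other way at 0.45 (limma adjusted p = 0.404), and Tfap2c stood at -0.50 (limma adjusted p = 0.317). Elf5, Postn, Lum and Dcn were not above background. All 7 ES cell markers were well above background on all 9 arrays and 0 passed, with sums of 265 to 290 on null, 341 to 381 on induced and 247 to 386 on floxed arrays. Blood (0 of 5), primitive endoderm (0 of 1) and germ cell markers (0 of 4) did not pass either, with Ptprc and 6 primitive endoderm markers not above background. Sums over blood markers were 2.37 to 2.53 on null, 1.46 to 1.63 on induced and 1.02 to 2.18 on floxed arrays, and 4 of the 5 had positive null minus floxed differences (median 0.77). Sums over germ cell markers were 6.75 to 7.03 on null, 7.37 to 7.60 on induced and 5.996 to 7.62 on floxed arrays. Whether such cells were present, and what part they had in the Dppa3 difference, was not tested.

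Genes around the members were taken from lists chosen with earlier results known and tested in the same fit, and no list gene passed in induced against floxed cells. Of 10 DNA methylation genes listed with Dppa3 0 passed in any comparison, and all 10 had positive null minus floxed differences (median 0.34). Dnmt3b, a de novo DNA methyltransferase, stood at 6.69, 6.80 and 6.78 on null, 5.59, 5.53 and 5.58 on induced and 5.37, 5.46 and 6.62 on floxed arrays. Its null minus floxed difference was 0.94 (SE 0.28, limma adjusted p = 0.111). Floxed array 3 was near the null arrays, and without it 4 of the 10 genes passed as higher in null than in floxed cells, against 13.1% of all genes in that direction.

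Of 13 naive pluripotency regulators 1 rose in null cells, the homeobox gene Gbx2, by 0.74 against floxed (limma adjusted p = 0.0401) and by 0.72 against induced cells (limma adjusted p = 0.0435). Gbx2 passed in 9 of 20 alternatives against floxed cells (limma adjusted p between 0.00382 and 0.586, with a difference of 0.32 with slide as a fixed block) and in 11 of 20 against induced cells (0.00521 to 0.161). The median of the list was -0.13 against floxed cells. Of 9 primed epiblast genes tested 2 rose in null against induced cells, the factors Pou3f1 by 1.67 (limma adjusted p = 0.0469) and Otx2 by 0.47 (limma adjusted p = 0.0423), and 0 passed against floxed cells. Pou3f1 and Otx2 each passed in 9 of 20 alternatives (limma adjusted p between 0.000257 and 0.172, and between 0.00865 and 0.163). All 9 had positive differences against floxed cells, with a median of 1.04. Without floxed array 3, 9 naive regulators passed as lower and 8 primed genes as higher in null than in floxed cells, where 11.9% of all genes were lower and 13.1% higher.

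Of 14 ES cell associated transcripts 1 rose in null against induced cells, Eras by 0.58 (limma adjusted p = 0.0313, past the test in 11 of 20 alternatives). Of 10 Oct3/4-Sox2 factors and targets 1 was lower in the same comparison, the Nodal inhibitor Lefty2, with a difference of -0.58 (limma adjusted p = 0.0291, past the test in 12 of 20 alternatives). Lefty2 stood at 3.95 in null, 4.53 in induced and 3.96 in floxed cells, so null cells were at the floxed level and induced cells were higher. Pou5f1, which encodes Oct3/4, stood at -0.55 for null minus floxed (limma adjusted p = 0.275), Sox2 at -0.18, Nanog at -0.60 (limma adjusted p = 0.134) and Zfp42 at -0.13. Of 6 oocyte KH-domain and maternal complex genes tested 1 fell in null against induced cells, Tle6, with a difference of -0.43 (limma adjusted p = 0.047, past the test in 10 of 20 alternatives).

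The remaining lists held no gene that passed. Of 13 germ cell genes the largest null minus floxed difference was that of the receptor Kit, -0.53, and of 8 genes tested of the 2-cell-like state that of Tcstv1, -0.56. Of 5 genes tested of the Tcl1 family and the Akt kinases, Tcl1b4 exceeded background on no null array. It was at least 1.87-fold lower there than in floxed cells. Its limma adjusted p of 0.114 belongs to the fitted difference of -1.33, which rests on null values not above background, and not to this bound. Of 4 partners of Nr0b1 the largest difference against induced cells was that of Esrrb, -0.66 (limma adjusted p = 0.144), and of 5 SCF ligase genes that of Skp2, 0.40 (limma adjusted p = 0.120).

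Genes beside Dppa3 on chromosome 6 had differences of both signs. Of 7 neighbours tested 0 passed in any comparison. Gdf3, a growth factor gene whose probe lies 23.9 kb away on the lower-coordinate side, differed by -0.20 between null and floxed cells. Nanog, 83.5 kb away on the other side, differed by -0.60, and Slc2a3, a glucose transporter gene 97.9 kb away on that side, by -0.45. Nanogpd is counted as a separate neighbour, although its probe lies beside that of Nanog, 83.3 kb from the Dppa3 probe. It differed by -0.46. Mfap5, 101.6 kb away on the lower-coordinate side, differed by 0.64 and Necap1, 258.5 kb away, by 0.02. Without floxed array 3, 1 neighbour passed as higher and 4 as lower in null than in floxed cells, against 13.1% and 11.9% of all genes. Of 2 tested neighbours of Dppa2 and Dppa4 0 passed.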

How the data were processed

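Total RNA of cultured mouse ES cells was labelled with Cy3 and hybridised to Agilent single-colour arrays, 9 arrays for 9 samples. Per the file headers, Agilent Feature Extraction 10.7.3.1 produced the deposited intensity of each spot, linear and not scaled between arrays. In the deposited value table, 100% of the intensities matched the mean signal in the scanner files within a tolerance of 0.6%, and 0 columns were unmatched. The mean signal is taken before background subtraction, so the deposited value table is not background-subtracted. Other values deposited per the file headers are the spot qualities.

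Outlier and control spots were left out (62976 spots, 59305 not controls, 55681 probes) and spots of a probe were averaged. The log2 of the processed signal was taken relative to the array's 75th percentile. The filter kept 27537 probes that exceeded background on every array of any group, and each gene was given by its brightest probe. Names came from RefSeq (GRCm38.p6) for 27235 probes and from the files for 28446, and positions are mm9 as in the files. The 3 comparisons came from 1 fit of 3 group means (limma 3.58.1, lmFit and eBayes, R 4.3.3, two-sided) with Benjamini-Hochberg adjustment over 19914 genes and a threshold of 0.05. The steps were tested on simulated data. Where a gene exceeded background on none of the arrays of the dimmer group, its fold is a bound ("at least"), taken against the lowest detected signal of those arrays. Summed marker levels are linear signal over the array's 75th percentile.

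The members and the lists were chosen with earlier results of these data known. Named genes were all members, Xpc, Pou5f1, Sox2, Nanog and Zfp42, up to 3 passing genes per list and direction, otherwise at most the one with the largest difference, and the 5 genes most like Dppa3 and 3 most like each other member, without predicted, clone or identifier names. Dnmt3b array values, the neighbours beside Nanog and Mfap5, the Dppa5b and Dppa1 probes, Cdx2, Hand1, Gata3, Eomes, Tfap2c, Twist2 and Thy1 were named after their values were seen. Replicate numbers did not pair the arrays, since same-numbered arrays of different groups had residual correlations between -0.106 and 0.0871.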

Additional observations from a re-analysis of the deposited data

How the results depend on the processing

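Alternatives were other scalings, background correction, filters, probe choice, the deposited value table, slide as a block, the replicate number as a block, trend and robust empirical Bayes, and leaving out each array. Dppa3 passed for null against floxed cells in 19 of the alternatives with a test, and with slide as a fixed block, which rests on 1 array pair of slide 2, it did not (-1.14, limma adjusted p = 0.192). For null against induced cells the Utf1 call was lost with no filter and with the replicate block. It was also lost without any 1 null array, any 1 induced array or floxed array 2.

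Genes called between induced and floxed cells (1) were 174 with slide as a fixed block, 0 with quantile normalisation, normexp, the value table, no filter, a filter on all 9 arrays, slide as a random block, or trend and robust, and 0 to 156 leaving out an array, highest without floxed array 3. Between null and floxed cells (368) they were 570 with normexp, 76 with no filter, 50 and 103 with slide as a fixed and random block, 910 with trend and robust, and 71 to 4971 leaving out an array, again highest without floxed array 3. Between null and induced cells (438) they were 63 with no filter, 3249 and 1812 with slide as a fixed and random block, 868 with trend and robust, and 60 to 3612 leaving out an array. With the replicate block, 166 genes were called in null against floxed and 188 in null against induced cells, and 1 member, Dppa3, in each.

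The calls of Gbx2, Pou3f1, Otx2, Eras, Lefty2 and Tle6 were each lost with no filter, with the replicate block, without null array 1 or 2 and without any 1 induced array, at adjusted p up to 0.586 for Gbx2 and up to 0.179 for the others.

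Members called between induced and floxed cells (0) were 1, Tcl1, with slide as a fixed block. Between null and floxed cells (1) they were 0 with that block, 2 with trend and robust, Dppa3 and Utf1, and 1 to 4 leaving out an array, the 4 being Dppa3, Utf1, Tcl1 and Nr0b1 without floxed array 3. Between null and induced cells (2) they were 0 with no filter, 4 with slide as a fixed block and 0 to 4 leaving out an array, 0 without null array 1 or 2. Leaving out single arrays turned the sign of induced minus floxed for Pou5f1 (-0.34 to 0.21), Sox2 (-0.11 to 0.12), Nanog (-0.15 to 0.22) and Zfp42 (-0.11 to 0.24). For null minus floxed, Sox2 turned to 0.14 and Zfp42 to 0.23 with slide as a fixed block, and Zfp42 to 0.02 (0.0152) with slide as a random block. The cause was not tested. With 9 arrays, 1 probe for 6 of the members and floxed array 3 apart from its group, small differences cannot be resolved.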
